A study of Homo sapiens with 6 samples.

Results

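Among the transcripts measured in REH cells was a group of 7 genes that are usually expressed in nervous tissue, OLIG3, OLIG1, OLIG2, VWC2, BRINP3, SVOPL and NETO1. They were selected on these same arrays, by the difference between knockdown of the ETV6/RUNX1 fusion and control and by the level against background, so their differences between the groups are given below as a description, with no test. Every catalogue probe whose RefSeq accession belongs to one of these genes was taken, which gave 8 probes, 1 for each gene and a second for NETO1, out of 57176 probes on the array, and 7 of 19721 genes that the catalogue probes named. REH is a human cell line of B-cell precursor acute lymphoblastic leukemia that carries the fusion gene ETV6/RUNX1 and has lost its other ETV6 allele. The 3 control arrays came from REH cells given non-targeting shRNA, a short hairpin RNA that per the study's methods was directed at ETV6 but did not target the fusion transcript, and the 3 knockdown arrays from REH cells given an shRNA against ETV6/RUNX1, directed at its ETV6 portion. In both groups the hairpin was delivered by a lentiviral vector that also encodes green fluorescent protein, and the fluorescent cells were sorted, so every sample is a transduced population of 1 cell line and the group rests on 1 hairpin.

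The OLIG genes encode basic helix-loop-helix (bHLH) transcription factors of the neural tube. OLIG2 and OLIG1 drive the oligodendrocyte lineage, the glia that make myelin, and OLIG3 specifies progenitors of dorsal interneurons. Factors of this class bind DNA as pairs with E proteins, which lymphocytes also use, while ID proteins pair with E proteins and keep them from DNA. VWC2 encodes brorin, a secreted antagonist of bone morphogenetic proteins (BMPs), BRINP3 a protein of a neural family named after its induction by BMPs and retinoic acid, SVOPL a putative transporter related to the synaptic vesicle protein SVOP, and NETO1 an auxiliary subunit of glutamate receptors in neurons. In the fusion, the part of ETV6 that lacks its DNA-binding domain is joined to nearly all of RUNX1, a blood transcription factor that binds DNA through its Runt domain.

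A window of 250 bases upstream of an annotated start is shown for each of the 4 genes with the largest differences, because RUNX1 is the part of the fusion that binds DNA. These windows come from RefSeq (GRCh38.p14), are written 5′ to 3′ on the strand of the gene, and capitals mark a RUNX motif (TGTGGT or TGCGGT, either strand). The OLIG3 window lies at chr6:137494395-137494644 (minus strand), that of VWC2 at chr7:49773388-49773637 (plus strand), that of SVOPL at chr7:138701363-138701612 (minus strand) and that of BRINP3 at chr1:190475988-190476237 (minus strand).
OLIG3: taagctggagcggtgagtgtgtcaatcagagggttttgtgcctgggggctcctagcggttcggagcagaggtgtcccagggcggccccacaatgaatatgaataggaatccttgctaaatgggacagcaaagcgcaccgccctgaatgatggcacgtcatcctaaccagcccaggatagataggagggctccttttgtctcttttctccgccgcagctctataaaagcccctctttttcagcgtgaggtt
VWC2: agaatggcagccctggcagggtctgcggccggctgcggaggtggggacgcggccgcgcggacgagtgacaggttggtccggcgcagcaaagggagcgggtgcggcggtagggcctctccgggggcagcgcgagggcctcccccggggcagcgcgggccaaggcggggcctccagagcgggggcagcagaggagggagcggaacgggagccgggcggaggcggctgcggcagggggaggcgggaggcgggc
SVOPL: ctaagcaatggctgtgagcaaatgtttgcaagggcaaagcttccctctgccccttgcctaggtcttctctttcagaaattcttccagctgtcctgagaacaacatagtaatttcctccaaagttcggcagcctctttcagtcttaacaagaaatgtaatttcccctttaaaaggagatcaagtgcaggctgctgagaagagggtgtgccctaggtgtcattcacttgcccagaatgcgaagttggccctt
BRINP3: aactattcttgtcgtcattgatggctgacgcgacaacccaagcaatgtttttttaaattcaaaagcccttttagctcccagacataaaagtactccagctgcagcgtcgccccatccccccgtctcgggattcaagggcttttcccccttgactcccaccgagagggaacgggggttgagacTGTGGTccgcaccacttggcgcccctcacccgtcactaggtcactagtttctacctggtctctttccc
A RUNX motif was found in 1 of 9 windows of the 5 genes that the promoter table held, the BRINP3 window above, as TGTGGT 68 bases before the start. Either motif occurred in 16.3% of all 35116 windows of this length. The ETS motif CCGGAA, searched on both strands, was found in 1 of the 9 windows, upstream of NETO1, and in 14.5% of all windows. The OLIG3, VWC2 and SVOPL windows printed here held neither motif. BRINP3 and SVOPL each have a further window in the table, not printed, which held neither motif, and the BRINP3 window was printed for its motif. Over the 9 windows the share of G and C ran from 34.4% in a NETO1 window to 78.8% upstream of VWC2, around a median of 58.0% over all windows.

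The values below are median spot intensities after a variance stabilizing normalization. They are on a generalized log2 scale (glog2), which follows log2 for bright probes and flattens toward the background, so that a difference of a dim probe is understated. Across arrays, the median raw intensity was 66 to 75 and the median of the negative control spots 42.25 to 48, and the scanner software flagged 45.75% to 50.95% of probes as well above background. A probe was retained where it exceeded a threshold set on the negative controls of each array (5.66 to 6.15 glog2) on at least 2 of 3 arrays of a group, which left 27425 probes. Arrays correlated at 0.986 to 0.996 over these, and the number of arrays limits the precision. The retained ETV6 probe, which reads the targeted gene, was at 7.92, 8.05 and 8.37 in controls 1 to 3 and at 7.50, 7.46 and 7.29 in knockdowns 1 to 3. The groups did not overlap, and the difference of -0.70 ± 0.14 (SE, n = 3 per group) had an adjusted p of 0.0513 (limma), with 0.0436 to 0.29 over 17 alternative settings. B-cell precursor markers matched the labelled cell line, with 21 or 22 of 23 probes well above background on each array, and 3 of 9 probes of T-cell, myeloid, erythroid and platelet markers were so on each array.

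**Figure D1:**
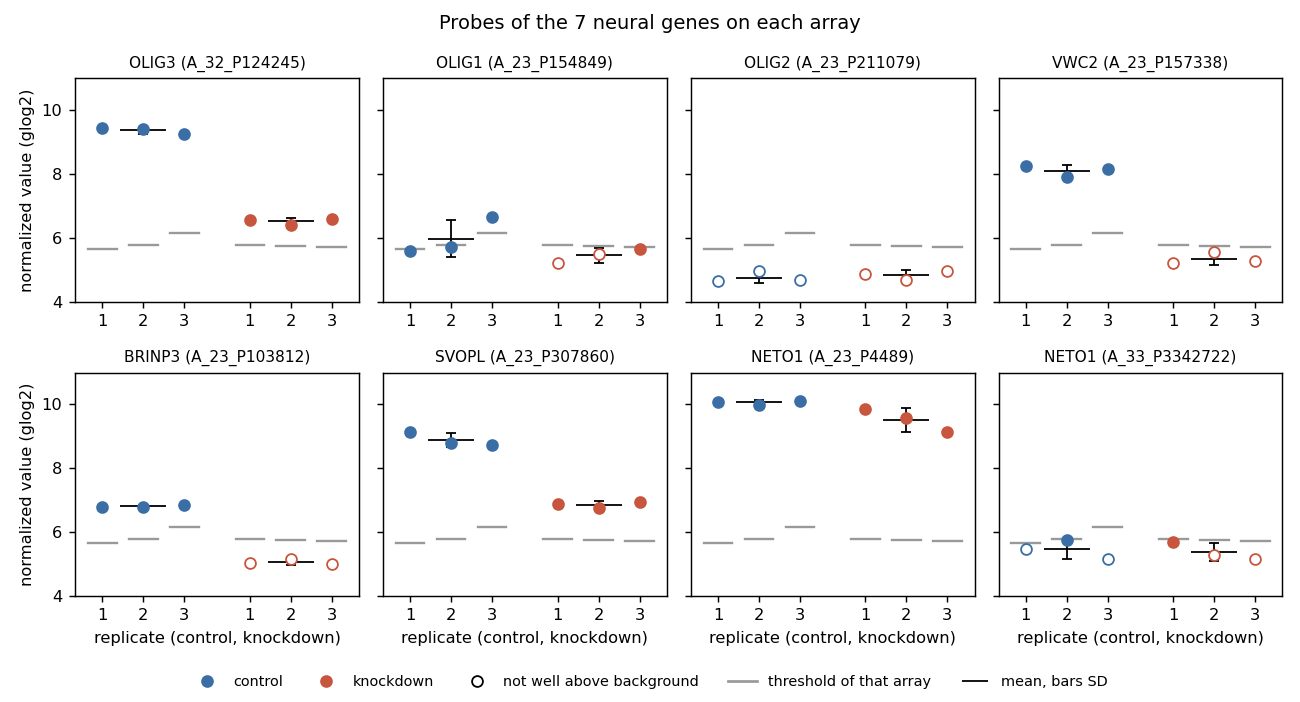
Normalized value (glog2, vertical axis) of the 8 probes of the 7 genes on each of 3 control and 3 knockdown arrays (horizontal axis). Open circles are values not well above background, grey lines the retention threshold of each array, and black lines the mean with SD (n = 3). OLIG3, VWC2, BRINP3 and SVOPL show a gap of 1.62 to 2.68 glog2 between the groups, NETO1 (A_23_P4489) a gap of 0.12, and the other 3 probes overlap.

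OLIG3 was the bHLH gene of the group with a clear signal. Its probe (A_32_P124245, NM_175747) measured 9.45, 9.40 and 9.26 glog2 in controls 1 to 3 and 6.56, 6.40 and 6.58 in knockdowns 1 to 3. All 3 controls were above all 3 knockdowns, by 2.68 between the nearest arrays, while the arrays of each group lay close together. The mean fell from 9.37 ± 0.10 to 6.52 ± 0.10 (SD, n = 3 each), a difference of -2.85 ± 0.10 (SE), or 7.22-fold, which left 13.8% of the control level on this scale. The difference was -3.47 with the 75th percentile of processed signals, -2.50 with spike-in scaling and -2.33 with normexp and quantile normalization. Only 2 of all retained probes had a lower value of this difference. The raw intensities were 678, 689 and 668 in the controls against 123, 98.5 and 106 in the knockdowns. The probe was still well above background on all 3 knockdown arrays, so a low OLIG3 signal was left rather than none. In such bulk RNA, fewer cells with a transcript and less of it in each cell cannot be told apart.

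OLIG1 and OLIG2, which lie side by side on chromosome 21, were near background. The OLIG1 probe (A_23_P154849, NM_138983) measured 5.59, 5.70 and 6.65 in controls 1 to 3 and 5.20, 5.50 and 5.65 in knockdowns 1 to 3. The groups overlapped although each knockdown was below the control of its number (-0.39, -0.20 and -0.99). Control 3 alone passed its threshold, so the probe was not retained in the main fit. In the 3 alternatives that held the probe its difference was -0.53, with 0 calls. It was well above background on 3 control arrays and 1 knockdown array, at raw intensities of 61, 67 and 123 against 55.5, 62 and 64.5. The oligodendrocyte determinant OLIG2 (A_23_P211079, NM_005806) did not clear background on any of the 6 arrays. Its values lay between 4.64 and 4.96 in both groups, with raw intensities of 39 to 47, beside the negative control medians of 42.25 to 48. For OLIG2 a difference was therefore not detectable, and OLIG3 was the OLIG gene whose probe passed the filter.

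VWC2, the secreted BMP antagonist, went from a clear signal to background. The probe (A_23_P157338, NM_198570) measured 8.26, 7.92 and 8.15 in controls 1 to 3 and 5.20, 5.57 and 5.28 in knockdowns 1 to 3. Every control was well above background and no knockdown was, with 2.35 between the nearest arrays of the groups. The measured means were 8.11 ± 0.18 and 5.35 ± 0.19 (SD, n = 3), a difference of -2.76 ± 0.14 (SE). The knockdown values were at background, so the size of the difference is not exact. Each knockdown array was therefore entered with the VWC2 value or, if that was greater, with the dimmest value that cleared background there. On that footing VWC2 was 6.38-fold lower in the knockdowns under this normalization. The dimmest value is no strict limit of detection, since VWC2 on knockdown 2 (5.57) exceeded it (5.396) without being well above background. The measured difference was -2.41 with spike-in scaling and -1.85 with normexp and quantile normalization. The raw intensities of 54 to 64 in the knockdowns stood against 256.5 to 318 in the controls.

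BRINP3 was dimmer and behaved likewise. Its probe (A_23_P103812, NM_199051), averaged over 5 spots or, on control 3, over those left after 1 outlying spot was removed, measured 6.78, 6.78 and 6.86 in controls 1 to 3 and 5.04, 5.16 and 4.98 in knockdowns 1 to 3. The groups were 1.62 apart, with SDs of 0.05 and 0.09 (n = 3), and again no knockdown array was well above background. On the same footing as for VWC2, BRINP3 was 2.80-fold lower in the knockdowns under this normalization, with a measured difference of -1.75 ± 0.10 (SE). The raw intensities of the controls were 120 to 140. The measured difference was -4.14 with background-subtracted signals scaled on the 75th percentile, -1.39 with spike-in scaling and -0.95 with normexp and quantile normalization.

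SVOPL, the transporter-like gene, kept a signal in the knockdowns. The probe (A_23_P307860, NM_174959) measured 9.13, 8.79 and 8.74 in controls 1 to 3 and 6.89, 6.74 and 6.94 in knockdowns 1 to 3. The groups did not overlap, with 1.81 between the nearest arrays. The mean fell from 8.89 ± 0.21 to 6.85 ± 0.10 (SD, n = 3), a difference of -2.04 ± 0.13 (SE), or 4.10-fold, and all 6 arrays were well above background.

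NETO1, the glutamate receptor subunit, differed far less. Its brighter probe (A_23_P4489, NM_138966) measured 10.09, 9.99 and 10.10 in controls 1 to 3 and 9.87, 9.58 and 9.12 in knockdowns 1 to 3. The groups stood apart by 0.12 only, and the knockdowns were spread (SD 0.38) where the controls were tight (SD 0.06). The difference was -0.54 ± 0.18 (SE), 1.45-fold, and it moved from -0.71 without knockdown 1 to -0.34 without knockdown 3. When arrays were scaled on the spike-in controls it was -0.19. The probe for the other NETO1 transcript (A_33_P3342722, NM_138999) measured 5.46, 5.76 and 5.16 in the controls and 5.68, 5.28 and 5.15 in the knockdowns. These overlapped, 2 of the 6 values were well above background, and the probe was not retained. As a label, lost after knockdown thus fits VWC2 and BRINP3, whose signal went to background. OLIG3 and SVOPL were lower but still detected, NETO1 kept most of its signal, and OLIG1 and OLIG2 were near background in both groups.

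Of the 8 probes, 5 were retained. The fit over all probes placed 4 of these among the probes called lower at an adjusted p under 0.05 (1.28% of all retained probes), which describes them and is no test of them. All 5 retained probes were lower without overlap of the groups, beside 9.87% of all retained probes. These counts follow from how the genes were chosen, and the VWC2 and BRINP3 probes passed the filter through the controls alone, so nothing is read from them. Controls 1 and 2 lay in 1 row of the slide, and control 3 in the other row with all knockdowns. Against control 3 alone, the difference was -2.74 for OLIG3, -2.80 for VWC2, -1.80 for BRINP3, -1.89 for SVOPL and -0.58 for NETO1.

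**Figure D2:**
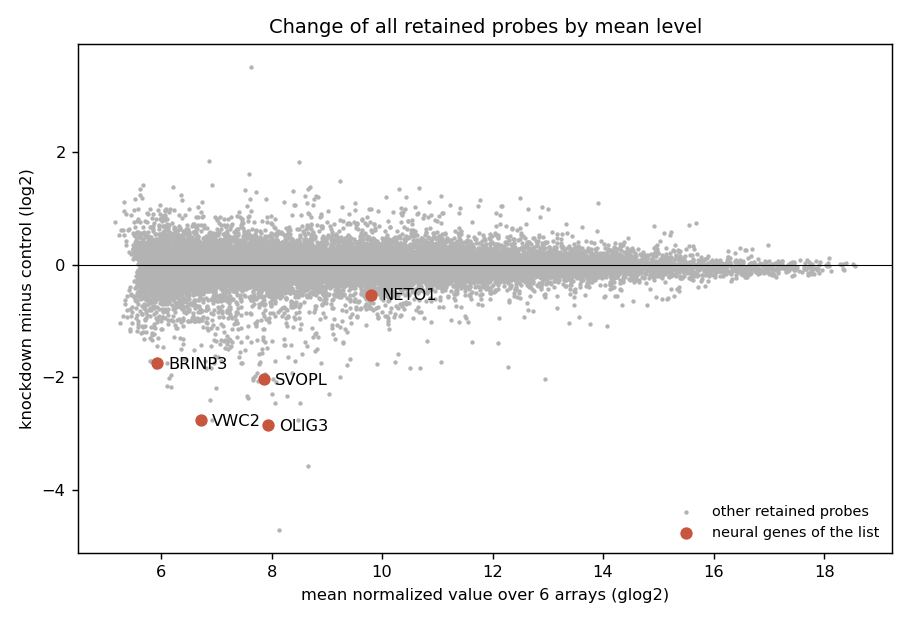
Difference between knockdown and control (log2, vertical axis) against the mean normalized value over 6 arrays (glog2, horizontal axis) for 27425 retained probes in grey and the 5 retained probes of the group in red. OLIG3 (-2.85), VWC2 (-2.76), SVOPL (-2.04) and BRINP3 (-1.75) lie along the lower edge of the cloud, and NETO1 (-0.54) near its body.

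**Figure D3:**
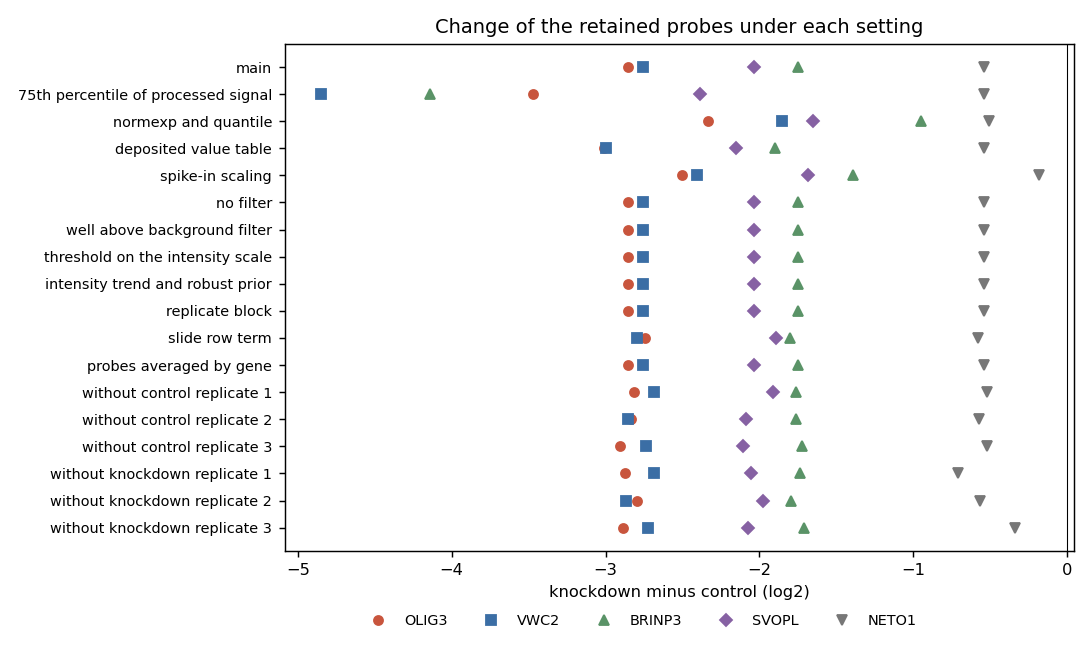
Difference between knockdown and control (log2, horizontal axis) of the 5 retained probes under the main setting and 17 alternatives (vertical axis). Each symbol is 1 gene. All values are below 0, VWC2 ranges from -4.85 to -1.85 and BRINP3 from -4.14 to -0.95, and NETO1 stays between -0.71 and -0.19.

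Among 1052 retained catalogue probes that spanned at least 1 glog2 unit over the 6 arrays, those most like OLIG3 by Pearson r read TMEM236 (0.999), TM4SF1 (0.999), NRP1 (0.998), FBLN5 (0.998) and ATP6V0A4 (0.998). Of the group itself, SVOPL reached 0.996, BRINP3 0.993, VWC2 0.990 and NETO1 0.764. The 6 arrays fall into 2 groups, so these values mostly follow the difference between groups and are a description. TM4SF1, a membrane protein of the tetraspanin-like family, went from 10.48 ± 0.11 to 5.78 ± 0.17 glog2, and NRP1, a semaphorin and VEGF co-receptor known from axon guidance and vessels, from 9.77 ± 0.07 to 8.03 ± 0.04 (SD, n = 3).

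Other genes of nervous tissue were then examined by function, from lists drawn up with earlier results of these data known. Over 90 genes with 117 probes, 38 probes were retained, and 64 did not clear background on any array. Of the 38, 4 were called lower and 0 higher (limma), or 10.5%, where of all retained probes 1.74% were called, 1.28% lower and 0.459% higher, and their median difference was -0.06. Of the calls, 3 were probes of E proteins and ID inhibitors, which lymphocytes also use, and 1 was a probe of a BRINP paralogue. Without the E proteins and ID inhibitors, 1 of 30 retained probes was called (3.33%), and the median was 0.03. With the replicate number as a block 6 of the 38 were called (3.78% of all retained probes in that fit). An unadjusted p under 0.05 was found for 7 of the 38. The share of all retained probes at that unadjusted threshold was not computed, so nothing is read from such counts here or below.

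The bHLH genes related to OLIG, which include the proneural NEUROG and NEUROD factors and the HES and HEY repressors, had 7 of 20 probes retained. Of these, 0 were called at the adjusted threshold and 1 at an unadjusted p under 0.05, with a median of 0.03. The lowest was HEY2, a Notch target, at 6.10, 5.84 and 5.68 in the controls and 5.46, 5.32 and 5.24 in the knockdowns. It was well above background on 2 control arrays and no knockdown array, so the means of both groups hold values near background. The measured difference of -0.53 had an adjusted p of 0.118, and of 0.0317 with the replicate block (0.0317 to 0.788 over 15 alternatives), and was -1.81 with the 75th percentile, -0.27 with normexp and -0.18 with spike-in scaling. The highest, NEUROG3, overlapped between the groups (0.13, adjusted p = 0.657).

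The E proteins, with which these factors pair, and the ID inhibitors were all detected. Of their 8 retained probes, 7 had a lower mean in the knockdowns, of which 3 were called. The median was -0.60 over the list, beside -0.0015 over all retained probes. TCF4, an E protein that precursor B cells use, measured 13.94, 14.06 and 14.07 in the controls and 13.18, 13.05 and 13.07 in the knockdowns. All controls exceeded all knockdowns, and TCF4 fell by 0.92 ± 0.10 (SE, 1.90-fold, adjusted p = 0.00329). ID2, an inhibitor of E proteins, fell on both of its probes. The first (A_23_P143143) measured 10.21, 9.93 and 9.90 against 9.0, 9.09 and 9.19, a change of -0.92 ± 0.12 (adjusted p = 0.00883). The second (A_32_P69368) changed by -0.94 ± 0.13 (adjusted p = 0.0115), and groups did not overlap on either. TCF3, the E protein first described at immunoglobulin enhancers, differed by 0.07 (adjusted p = 0.835). With spike-in scaling the adjusted p was 0.145 for TCF4, at a difference of -0.57, and 0.146 and 0.139 for the ID2 probes. With the slide row as a term it was 0.137 and 0.165 for ID2, both ID2 calls were lost without knockdown 2 (0.0505 and 0.0552), and that of A_32_P69368 also without control 2 (0.0536) or knockdown 3 (0.067). The ID2 differences in these fits were -0.57 to -0.97.

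Of 29 probes for markers of the oligodendrocyte lineage, 10 or 11 were well above background on each array, and 16 did not clear it on any. SOX10, NKX2-2, PDGFRA and CSPG4, which mark its precursors, had no retained probe, while 7 of the 20 genes had at least 1. Of 10 retained probes of 29, 0 were called (1 at an unadjusted p under 0.05), and the median was 0.12. The myelin basic protein gene MBP, which blood cells also transcribe, gave the highest difference, with 10.23 to 10.49 in the controls and 10.54 to 11.14 in the knockdowns. Its difference of 0.41 had an adjusted p of 0.357, and of 0.0465 with spike-in scaling (0.0465 to 0.66 over 17 alternatives). UGT8, a myelin lipid enzyme, was the lowest at -0.13 (adjusted p = 0.772), and at 0.22 with spike-in scaling.

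Neuronal markers had 5 of 17 probes retained, with 0 called (1 at an unadjusted p under 0.05) and a median of -0.17. STMN2, TUBB3, MAP2, NEFL and DCX, genes of the neuronal cytoskeleton, had no retained probe. Of all 17 probes, 5 or 6 were well above background on each array. The synaptic vesicle calcium sensor SYT1 measured 9.52, 9.02 and 8.93 in the controls and 8.93, 8.19 and 8.14 in the knockdowns. Each knockdown was below the control of its number while the groups as a whole touched, and the difference of -0.73 had an adjusted p of 0.243, or 0.0125 with the replicate block (0.0125 to 0.872 over 17 alternatives). None of 8 probes of astrocyte markers such as GFAP and AQP4 was retained.

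Paralogues gave 3 retained probes of 9, with 1 called. BRINP2, of the same family as BRINP3, measured 7.96, 7.49 and 7.56 in the controls and 6.86, 5.94 and 6.12 in the knockdowns. The groups did not overlap, and BRINP2 fell by 1.36 ± 0.24 (SE, 2.57-fold, adjusted p = 0.0339). This call was lost in 8 of 17 alternatives, among them the slide row term (0.312) and the fits without control 1 (0.0981), control 2 (0.101), control 3 (0.0939), knockdown 2 (0.122) or knockdown 3 (0.161). The difference itself was -1.99 to -1.18 in those 8. The synaptic vesicle gene SV2A, a relative of SVOPL, differed by -0.10 and -0.30 on its 2 probes (adjusted p = 0.748 and 0.755), both above 0 with spike-in scaling, and NETO2, VWC2L and SVOP had no retained probe. The ionotropic glutamate receptors that NETO1 can accompany had 5 of 26 probes retained, with 0 called at either threshold and differences of -0.11 (GRIK5, adjusted p = 0.835) to 0.20 (GRIA4, adjusted p = 0.434). GRIK5 was at 0.24 with spike-in scaling.

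**Figure D4:**
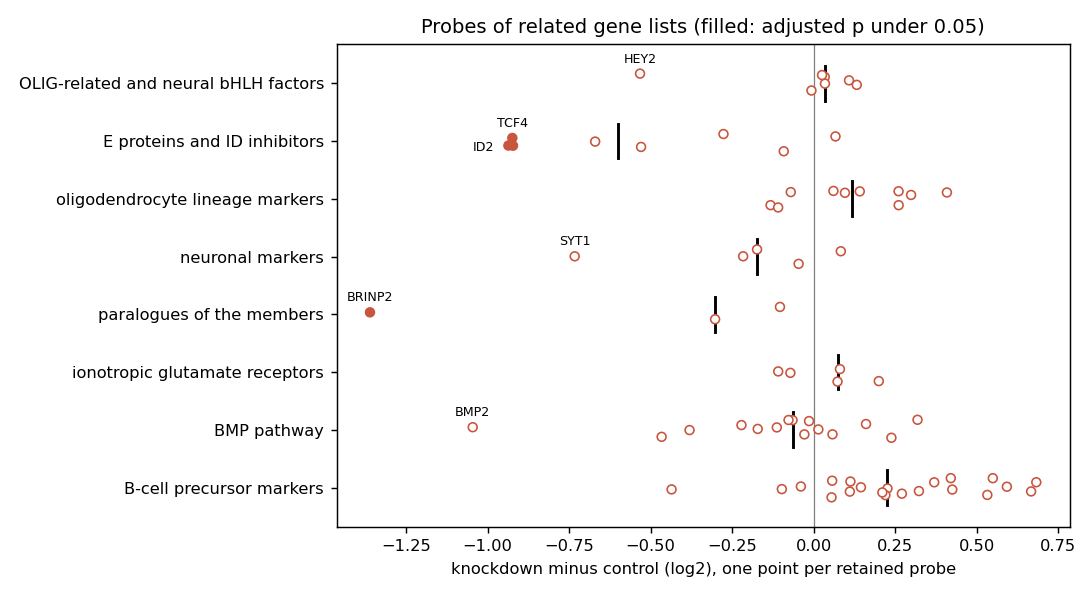
Difference between knockdown and control (log2, horizontal axis) of each retained probe in 8 gene lists (vertical axis). Filled points passed an adjusted p under 0.05, and black lines mark medians. TCF4, ID2 (2 probes) and BRINP2 are the filled points, while the median of each other neural list lies between -0.17 and 0.12.

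The BMP pathway, which VWC2 acts on outside the cell, had 15 of 37 probes retained. Of these, 0 were called, with a median of -0.06, and 2 had an unadjusted p under 0.05, again without an array-wide share. The ligand BMP2 was the lowest, at 10.98, 10.60 and 10.33 in the controls and 10.14, 9.26 and 9.37 in the knockdowns. The groups did not overlap, and the difference of -1.05 ± 0.25 (SE) had an adjusted p of 0.11, of 0.00839 with the replicate block and of 0.0177 without knockdown 1 (0.00839 to 0.724 over 17 alternatives). The antagonist CHRD had the highest difference, 0.32, with overlapping groups (adjusted p = 0.371).

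B-cell precursor markers had 21 of 23 probes retained, and 0 were called, with a median of 0.23. At an unadjusted p under 0.05 there were 9, a count with no array-wide share to set beside it. With the replicate block 4 were called higher, where 1.36% of all retained probes were. The highest was an IGLL1 probe, for a surrogate light chain of the pre-B receptor, at 0.68 (A_24_P239076, adjusted p = 0.221, and 0.0129 with the block, 0.00177 to 0.853 over 17 alternatives), and the lowest was RAG2, an enzyme of V(D)J recombination, at -0.44 (adjusted p = 0.191). The summed raw intensity of the 23 probes was 318498 to 375628 in the controls and 364850 to 527054 in the knockdowns. T-cell, myeloid, erythroid and platelet markers had 4 of 9 probes retained with 0 called (1 at an unadjusted p under 0.05). Their summed raw intensity was 816 to 941 in the controls and 831 to 967 in the knockdowns, with HBB, PPBP and ELANE not retained. The T-cell gene CD3E was retained but not well above background on any of the 6 arrays. The lowest difference was that of the monocyte gene CD14 at -0.13 (adjusted p = 0.68), or 0.22 with spike-in scaling. The part of these markers in the differences of the neural genes was not tested.

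The genes beside the members were examined next, taking the 3 protein-coding genes on each side in the RefSeq gene table. Of 24 retained probes in 19 genes, 4 were called lower and 0 higher (16.7%, beside 1.28% called lower over all retained probes), with a median of -0.11. Those calls lay beside SVOPL and BRINP3. ATP6V0A4, the gene next to SVOPL and a subunit of the proton pump V-ATPase, measured 9.97, 9.81 and 9.82 in the controls and 7.30, 6.99 and 7.02 in the knockdowns. It fell by 2.77 ± 0.12 (SE, 6.80-fold, adjusted p = 0.000113), and this call was kept under all 17 alternatives. TRIM24, a transcriptional cofactor on the other side of SVOPL, measured 14.78, 14.73 and 14.58 against 13.97, 14.04 and 13.96 and fell by 0.71 ± 0.10 (adjusted p = 0.0124). CREB3L2, a transcription factor of the endoplasmic reticulum membrane, fell by 0.49 ± 0.09 on 1 probe (A_33_P3320888, adjusted p = 0.0495), and its other probe differed by -0.46 ± 0.20 (adjusted p = 0.39). KIAA1549, the third gene on the side of ATP6V0A4, differed by 0.04 (adjusted p = 0.901), and AKR1D1 and TMEM213 had no retained probe. The TRIM24 call was lost with spike-in scaling (0.283), the slide row term (0.196) and without control 2 (0.0873), knockdown 2 (0.0556) or knockdown 3 (0.0655), at differences of -0.36 with spike-in scaling and -0.73 to -0.59 in the others. The CREB3L2 call was lost in 13 of 17 alternatives, including the fit without any single array (0.0521 to 0.219), at -0.14 with spike-in scaling and -0.52 to -0.45 in the others.

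A wider stretch of 8 genes on each side of SVOPL, chosen after these values were seen, held 14 retained probes in 11 genes besides SVOPL. The 9 probes more than 3 places away gave 0 calls, with differences of -0.24 to 0.28. Within this stretch the called genes lay at most 3 places from SVOPL, with ATP6V0A4 next to it on 1 side and TRIM24 on the other.

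**Figure D5:**
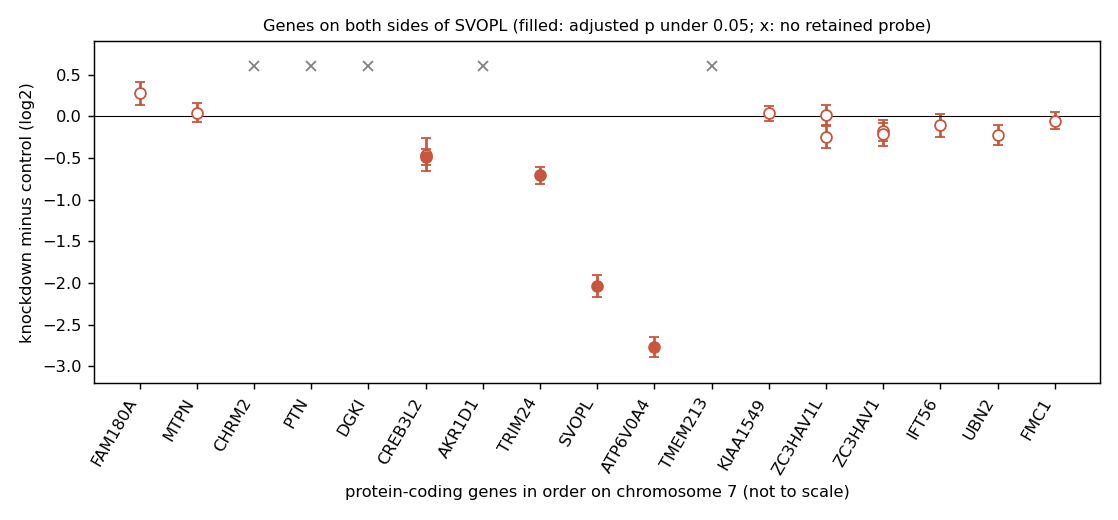
Difference between knockdown and control (log2 with SE, vertical axis) of the retained probes of SVOPL and the 8 protein-coding genes on each side, in gene order (horizontal axis, not to scale). Filled points have an adjusted p under 0.05, and crosses mark genes with no retained probe. SVOPL (-2.04) and ATP6V0A4 (-2.77) are the lowest, TRIM24 (-0.71) and CREB3L2 (-0.49) are intermediate, and genes farther away lie between -0.24 and 0.28.

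Near BRINP3, RGS1, a regulator of G-protein signalling in B cells, measured 10.33, 9.77 and 9.76 in the controls and 9.07, 8.47 and 8.74 in the knockdowns. The groups did not overlap, and RGS1 fell by 1.20 ± 0.20 (SE, 2.29-fold, adjusted p = 0.0285), while its relative RGS18, the gene adjacent to BRINP3, differed by -0.27 (adjusted p = 0.366). The RGS1 call was lost in 8 of 17 alternatives, among them the slide row term (0.314) and the fits without control 1 (0.0552), control 2 (0.0784), control 3 (0.062), knockdown 2 (0.109) or knockdown 3 (0.13), with differences of -1.291 to -1.003 in those 8. Beside OLIG3, the interferon gamma receptor gene IFNGR1 (-0.27, adjusted p = 0.316), the NF-kB regulator TNFAIP3 (0.06, adjusted p = 0.859) and PERP (0.04, adjusted p = 0.923) were retained and not called. Around OLIG1 and OLIG2, 0 probes were called. IL10RB, a cytokine receptor chain, was the highest there at 0.39 (adjusted p = 0.0993), 3 probes of the interferon receptor gene IFNAR2 differed by 0.11 to 0.36 (adjusted p from 0.411 to 0.86), and PAXBP1 and SYNJ1 differed by -0.22 to 0.01 with directions that changed between settings. The lymphoid regulator IKZF1, the one gene near VWC2 with a retained probe, differed by -0.07 (adjusted p = 0.896), and 5 genes near NETO1 were retained with 0 called.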

How the data were processed

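RNA of REH cells was labeled with Cy3 and hybridized to 6 one-color custom Agilent arrays, read with Agilent Feature Extraction 10.7.1.1 per the file headers. All 6 arrays lay on 1 slide and had 1 scan date. The deposited scanner files hold raw spot intensities and background-subtracted processed signals. The authors' deposited value table holds 27869 normalized values per array on a log2 scale.

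The analysis followed the order of the authors' methods, which name variance stabilizing normalization with the VSN package, background subtraction, a filter against the negative controls and limma. The separate background subtraction was not repeated, since the fitted model holds an offset for each array, and the quantile of the negative controls was chosen here. The vsn model was fitted on the median spot intensity by a maximum likelihood routine written here (trimming quantile 0.9), after removal of control and outlier spots. The normalized values of the spots of a probe were then averaged. The values correlated with the deposited table at 0.999 or higher. A probe was retained where it exceeded 1.1 times the 0.95 quantile of the normalized negative controls on 60% or more of a group's arrays. The margin over the negative controls and the share of arrays follow the authors' methods, and the quantile is not given in the sources used here. limma 3.58.1 (R 4.3.3, lmFit and eBayes, two-sided) compared 3 knockdown with 3 control arrays, with Benjamini-Hochberg adjustment over all 27425 retained probes. Replicates are biological triplicates per the study's text. Deviations of same-numbered arrays from their group means correlated at 0.43, 0.29 and 0.20 (differently numbered arrays at -0.33 to 0.19). The numbers, which come from the labels, may thus pair the samples, though the third value is close to the highest of differently numbered arrays. The authors' methods name no block, so the main fit had none, and a fit with the replicate number as a block was an alternative. The routine was tested on simulated data.

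Accessions were named through the RefSeq gene table (GRCh38.p14), which matched 75.4% of 34134 catalogue probes. Probe positions are not analysed here. The group of genes and all lists were chosen with earlier results of these data known. Named genes are all member probes, up to 5 called genes of lowest p and the extremes of each list, called neighbours, the neighbours of OLIG1 and OLIG2, the 5 probes most like OLIG3, and ETV6. A few further neighbours and markers were named after their values were seen. Alternatives were the 75th percentile of processed signals, normexp (offset 50) with quantile normalization, the deposited table, spike-in scaling (6 probes), no filter, a filter on the well-above-background flag, the threshold on the intensity scale (chosen after seeing the data), an intensity trend with a robust prior, the replicate block, a slide row term, probes averaged by gene, and leaving out each array. Custom lncRNA probes entered the fit and are not described.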

Additional observations from a re-analysis of the deposited data

How the results depend on the processing

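Over all retained probes, 477 were called, against 1067 with spike-in scaling, 224 with no filter, 1038 with the replicate block, 227 with the slide row term and 191 to 553 when 1 array was left out (191 without control 2). Spike-in scaling raised the median difference of all probes to 0.35, so that 160 were called lower and 907 higher, where the main split was 351 and 126. For the neural lists (4 called) the count was 2 with spike-in scaling, 2 with the slide row term and 1 to 5 with 1 array left out (1 without knockdown 2). For the BMP list (0) it was 1 with the replicate block and 0 to 1 with 1 array left out. For the neighbours (4) it was 2 with the 75th percentile, 2 with spike-in scaling, 2 with no filter, 1 with the slide row term and 1 to 3 with 1 array left out. For the cell type lists (0) it was 1 with normexp, 7 with spike-in scaling, 1 with the well-above-background filter, 1 with the intensity trend, 4 with the replicate block and 0 to 1 with 1 array left out. Directions turned for uncalled probes only. With spike-in scaling UGT8 was at 0.22, SV2A at 0.25 and 0.05, GRIK5 at 0.24, CD14 at 0.22, PAXBP1 (A_23_P211056) at 0.14 and SYNJ1 at 0.25. With the slide row term RBFOX3 was at -0.022, SV2A (A_24_P131236) at 0.23 and GRIK5 at 0.043. With 1 array left out, SV2A (A_24_P131236) ranged from -0.57 to 0.12, GRIK5 from -0.24 to 0.035, PAXBP1 (A_23_P211064) from -0.17 to 0.16, IFNAR2 (A_23_P211080) from -0.081 to 0.27 and SYNJ1 from -0.22 to 0.024. PAXBP1 averaged by gene was at -0.10. The causes were not tested. The replicate block changed no call of a named gene other than HEY2, SYT1, BMP2 and IGLL1. Signal near background limits OLIG1, OLIG2, the second NETO1 probe, CD3E, and the knockdown values of VWC2, BRINP3 and HEY2. All differences rest on 3 arrays per group and 1 hairpin per group.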
